A study of Mus musculus with 18 samples.

Results

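The antioxidant response genes controlled by the transcription factor NRF2 were examined in bone marrow-derived macrophages (BMMs) over 3 genotypes, with and without lipopolysaccharide (LPS). The 10 genes were chosen by name as members of this pathway. They were Nfe2l2, which encodes NRF2, its inhibitor Keap1, and the targets Hmox1, Nqo1, Gclc, Gclm, Slc7a11, Txnrd1, Srxn1 and Prdx1. They were 10 of the 38887 genes measured, and all 10 passed the filter on low counts in every comparison. Polyadenylated RNA of 18 libraries was sequenced, with 3 libraries for each of 6 groups. All mice were female on the C57BL/6J background, and the study's methods give an age of 10 to 23 weeks for its BMM donors. WT, GILZ KO and GILZ TG cells were either left untreated (control) or treated for 4 h with 100 ng/ml LPS, a bacterial cell wall component that activates macrophages. GILZ is the glucocorticoid-induced leucine zipper, encoded by Tsc22d3. By the study's methods, WT mice carried Cre recombinase in the Lyz2 locus, which is active in myeloid cells. GILZ KO mice carried the same Cre and loxP sites around exon 6 of Tsc22d3. GILZ TG mice carried the same Cre and a Tsc22d3 cDNA in the ROSA26 locus behind a loxP-flanked stop cassette. By these methods all 3 genotypes carry the Cre, though the Lyz2 levels given below differ between them, and deletion or overexpression was limited to cells in which Lyz2 had been active.

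NRF2 is held at a low level by KEAP1, which presents it to a CUL3 ubiquitin ligase for degradation. When oxidants or electrophiles modify cysteines of KEAP1, NRF2 escapes, pairs with small MAF proteins and binds antioxidant response elements of its target genes. BACH1 competes with it for these elements and represses, among others, Hmox1. In macrophages the targets make glutathione, reduce thioredoxin and peroxides, and degrade heme, and much of the control of NRF2 acts on the protein, which RNA levels do not show.

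The promoters are shown first because the genes are grouped by a response element that their regulator binds. The core of the antioxidant response element, TGACNNNGC, was searched on both strands in windows of 300 bases, from 250 bases before to 50 bases after each start site, in the RefSeq promoters of GRCm38.p6. Windows were found for 8 of the 10 genes, Hmox1 and Gclc being the other two, and 5 of these 8 genes held a match (Nfe2l2, Gclm, Srxn1, Txnrd1 and Prdx1). Of the 10 windows of these 8 genes, 5 held a match, and of all 32851 windows 12.4% did. A match is a run of letters, not a measured binding site. The stretches below stop before the annotated exon of the start site they belong to, and that of Txnrd1 lies inside the gene, before the exon of a later start. An exception is that the match of Srxn1 lies in the first exon and is shown with 10 bases on each side. Capitals mark the match as read on the gene's own strand, where a match to the opposite strand has the form GCNNNGTCA.
Nfe2l2, GRCm38.p6 chr2:75704664-75704913, minus strand: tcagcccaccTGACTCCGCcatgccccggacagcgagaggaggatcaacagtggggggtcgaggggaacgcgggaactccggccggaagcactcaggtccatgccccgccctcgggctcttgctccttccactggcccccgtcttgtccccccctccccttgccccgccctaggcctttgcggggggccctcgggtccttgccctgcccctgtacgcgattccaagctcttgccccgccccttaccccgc
Gclm, GRCm38.p6 chr3:122245307-122245556, plus strand: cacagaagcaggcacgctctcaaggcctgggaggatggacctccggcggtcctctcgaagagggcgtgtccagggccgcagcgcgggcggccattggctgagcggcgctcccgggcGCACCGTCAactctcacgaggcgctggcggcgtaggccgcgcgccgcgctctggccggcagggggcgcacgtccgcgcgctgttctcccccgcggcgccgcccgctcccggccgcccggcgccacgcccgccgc
Txnrd1, GRCm38.p6 chr10:82858956-82859178, plus strand, one of 3 annotated starts: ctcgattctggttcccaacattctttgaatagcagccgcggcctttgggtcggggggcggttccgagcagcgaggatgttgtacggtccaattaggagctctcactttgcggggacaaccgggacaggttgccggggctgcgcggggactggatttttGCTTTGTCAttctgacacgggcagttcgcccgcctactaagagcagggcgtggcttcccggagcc
Prdx1, GRCm38.p6 chr4:116685349-116685543, plus strand: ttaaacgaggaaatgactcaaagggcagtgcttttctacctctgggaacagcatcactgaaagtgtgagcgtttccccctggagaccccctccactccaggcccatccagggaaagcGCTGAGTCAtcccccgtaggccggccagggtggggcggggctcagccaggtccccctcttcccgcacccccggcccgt
Srxn1, GRCm38.p6 chr2:152105542-152105570, plus strand: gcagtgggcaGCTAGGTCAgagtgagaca
The match began 240 bases before the start site in Nfe2l2, 134 in Gclm, 133 in Prdx1 and 92 in Txnrd1, and it lay after the start site in Srxn1. Exons of noncoding genes on the opposite strand overlap the stretches of Nfe2l2 (E030042O20Rik) and Txnrd1 (Gm38560). The 5 genes with a match did not respond to LPS in 1 direction, as the levels below show: Prdx1 rose, while Gclm and Srxn1 fell.

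In GRCm38 the regulators lie as follows: Nfe2l2 (ENSMUSG00000015839) at chr2:75675513-75704641, minus strand and Keap1 (ENSMUSG00000003308) at chr9:21229730-21239361, minus strand. The heme and quinone enzymes are Hmox1 (ENSMUSG00000005413) at chr8:75093621-75100589, plus strand and Nqo1 (ENSMUSG00000003849) at chr8:107388225-107403206, minus strand. The glutathione genes are Gclc (ENSMUSG00000032350) at chr9:77754535-77794485, plus strand, Gclm (ENSMUSG00000028124) at chr3:122245557-122270732, plus strand, and Slc7a11 (ENSMUSG00000027737) at chr3:49892526-50443614, minus strand. The thioredoxin and peroxiredoxin genes are Txnrd1 (ENSMUSG00000020250) at chr10:82833951-82897712, plus strand, Srxn1 (ENSMUSG00000032802) at chr2:152105516-152111376, plus strand, and Prdx1 (ENSMUSG00000028691) at chr4:116685544-116700822, plus strand.

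Total counts per library were between 14583055 and 38557029, with a median of 24450362. Tsc22d3 was checked first. It was measured at 15.8, 14.9 and 18.8 TPM (a level scaled by transcript length and library size) in untreated WT, 1.89, 2.81 and 2.31 in GILZ KO and 156, 159.8 and 152 in GILZ TG, and after LPS at 4.56, 5.81 and 5.09, 2.96, 3.28 and 2.50 and 127, 141 and 127 TPM. The 3 genotypes did not overlap in either treatment. In the edgeR test described below, GILZ KO was called lower than WT without treatment (log2 fold change -2.74 ± 0.14, adjusted p = 2.16e-05). After LPS it was not (-0.69 ± 0.14, adjusted p = 0.15), and 16.3% of all genes had TPM values without overlap in that comparison. Lyz2, the locus of the Cre, was at 11048, 12070.2 and 15401 TPM in untreated WT, 28.2, 45.8 and 26.7 in GILZ KO and 17.2, 28.7 and 53.1 in GILZ TG. The number of Cre copies in the Lyz2 locus of each genotype is not given in the sources used here. Its part in these levels was not tested. By these levels WT differed from GILZ KO and GILZ TG in Lyz2 as well as in Tsc22d3. The parts of the 2 loci in any difference from WT cannot be told apart. All 8 macrophage markers (Adgre1, Csf1r, Cd68, Itgam, Fcgr1, Mertk, Cd14 and Mrc1) were above 0 in every library, with a summed level of 3920 to 5090 TPM. Replicates 1 and 2 of GILZ TG stood apart in both treatments. Their 8 stromal fibroblast markers summed to 153 to 221 TPM against 10.4 to 39.8 TPM in the other 14 libraries, and their 7 neutrophil markers to 50.0 to 130.4 TPM against 5.97 to 19.2 TPM. B cell and endothelial markers summed to at most 13.6 TPM in any library and T cell and erythroid markers to at most 0.88 TPM. In bulk RNA, fewer cells of a type and less RNA per cell cannot be told apart.

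LPS and control were set against each other on 2 scales, which place the typical gene differently. On log2(TPM + 1) the median of the 13169 genes tested fell by 0.51 in WT, 0.52 in GILZ KO and 0.51 in GILZ TG, whereas on counts normalized by TMM, the scale of the test, the median gene was at -0.02 in each genotype. A log2 fold change on TMM-normalized counts is therefore a change relative to the typical gene, and a gene can have a lower TPM after LPS and yet a log2 fold change above 0. Among all genes called, 48.9%, 48.4% and 48.9% were higher after LPS by the test in WT, GILZ KO and GILZ TG, and 19.8%, 18.8% and 19.3% on the TPM scale. The 20 most abundant genes held 14.7% to 16.5% of all TPM without treatment and 16.2% to 17.9% after LPS.

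Treatment with LPS moved the genes in different directions, as it did all genes tested. Among the 10 genes, 50%, 62.5% and 50% of calls on TMM-normalized counts were higher in WT, GILZ KO and GILZ TG. Among all genes called these shares were 48.9%, 48.4% and 48.9%, so a split was not particular to the 10 genes. On the TPM scale the shares were 30%, 37.5% and 33.3%, against 19.8%, 18.8% and 19.3%. Slc7a11, Keap1 and Prdx1 rose in every genotype on both scales, and Gclc, Gclm and Srxn1 fell in every genotype on both scales. Hmox1 was called lower in every genotype on log2(TPM + 1), and in WT and GILZ TG only on TMM-normalized counts. With edgeR (quasi-likelihood test, Benjamini-Hochberg adjustment), 8 of the 10 genes were called in each genotype, against 68.6%, 68.5% and 68.7% of all genes tested in WT, GILZ KO and GILZ TG. Of these, 4 were higher and 4 lower in WT and in GILZ TG, and 5 were higher and 3 lower in GILZ KO. Of all genes, 33.5%, 33.2% and 33.6% were called higher and 35.1%, 35.4% and 35.1% lower. TPM values of control and LPS did not overlap for 8 of the 10 genes in WT and 9 in GILZ KO and GILZ TG, against 81.2%, 83.7% and 80.9% of all genes. On log2(TPM + 1) the split was 3 higher and 7 lower in WT, 3 and 5 in GILZ KO, and 3 and 6 in GILZ TG. Over the 10 genes the log2 fold changes had medians of -0.03, 0.16 and -0.07, beside -0.02 for all genes in each genotype.

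**Figure D1:**
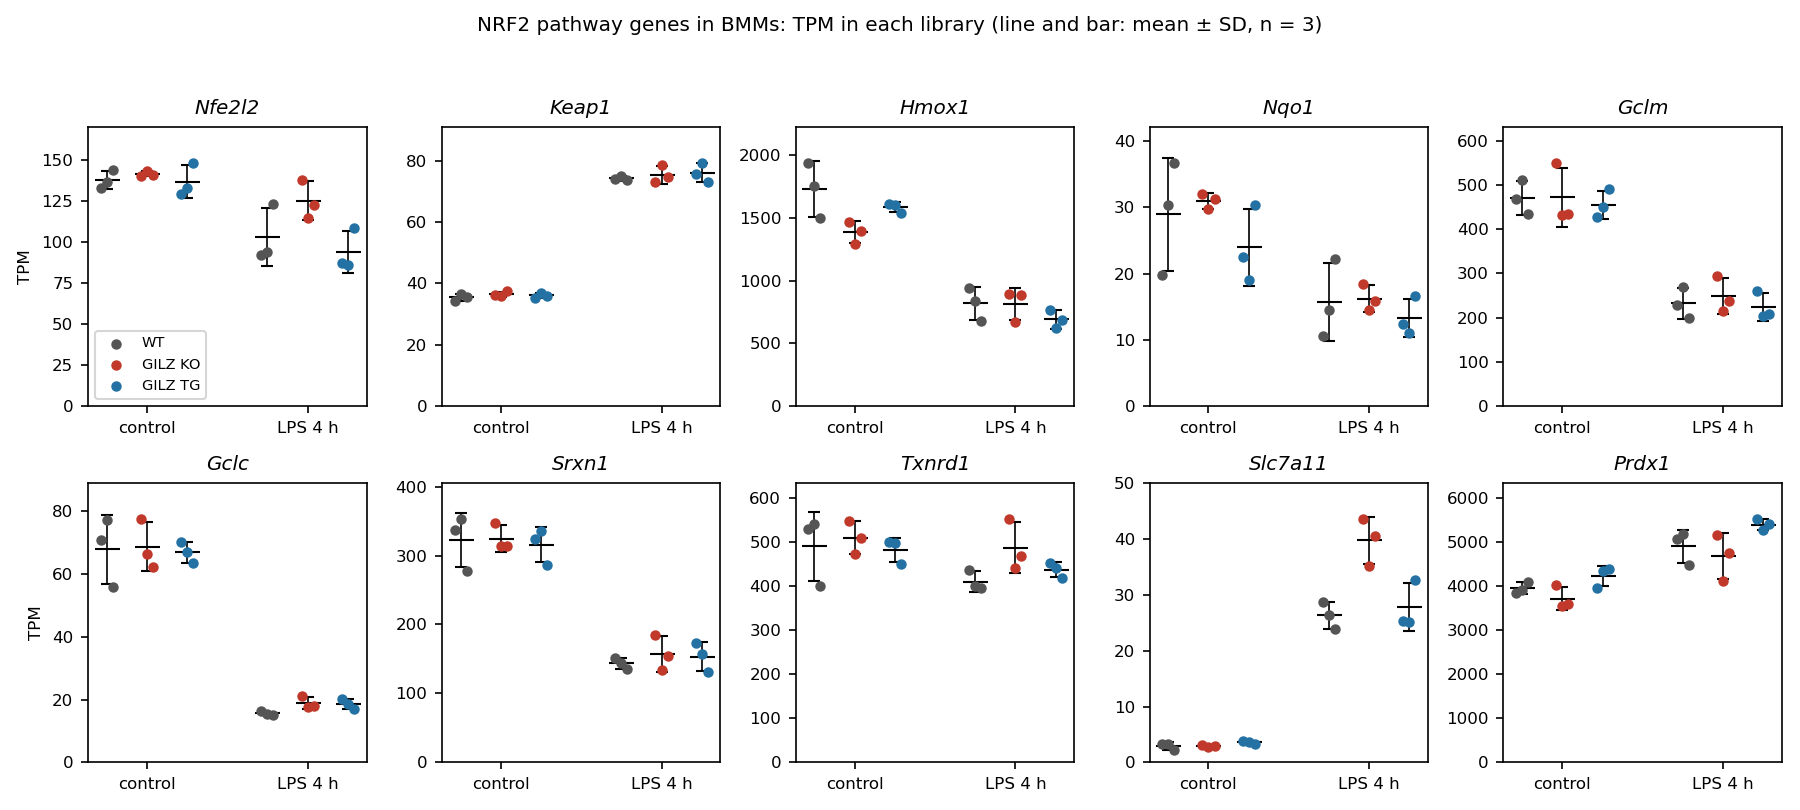
TPM of the 10 genes in each library (points), with the mean and SD of 3 libraries, for WT, GILZ KO and GILZ TG without treatment and after 4 h of LPS. Each vertical axis starts at 0 and has its own range. Slc7a11 and Keap1 lie higher and Gclc, Gclm and Srxn1 lower in all LPS libraries than in all control libraries.

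The regulators were described first. Nfe2l2 was measured without treatment at 133, 136 and 144 TPM in WT, 140.4, 143 and 141 TPM in GILZ KO and 129, 133 and 148 TPM in GILZ TG. After LPS the values were 91.9, 93.8 and 123 TPM in WT, 138, 115 and 123 TPM in GILZ KO and 87.1, 86.3 and 108 TPM in GILZ TG. The LPS libraries lay below the control libraries of their genotype without overlap in all 3 genotypes, while GILZ KO replicate 1 after LPS came close to the controls. The log2 fold change of Nfe2l2 on TMM-normalized counts was 0.20 ± 0.11 (adjusted p = 0.13) in WT, 0.45 ± 0.11 (adjusted p = 0.00203) in GILZ KO and 0.09 ± 0.11 (adjusted p = 0.52) in GILZ TG, so Nfe2l2 was called higher than the typical gene in GILZ KO, and on log2(TPM + 1) the direction turned, with changes of -0.43, -0.18 and -0.54 (adjusted p = 0.00156, 0.129 and 0.000207 in limma).

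A further gene on the opposite strand, Gm16754, overlaps Keap1, and the strand setting of the counting is not known. Keap1, which encodes the adaptor that targets NRF2 for degradation, had 34.2, 36.6 and 35.7 TPM in WT, 36.3, 35.9 and 37.4 TPM in GILZ KO and 35.4, 36.9 and 36.0 TPM in GILZ TG without treatment. After LPS it had 74.2, 75.0 and 73.6 TPM in WT, 73.0, 78.7 and 74.8 TPM in GILZ KO and 75.8, 79.3 and 73.2 TPM in GILZ TG. Control and LPS libraries were far apart in each genotype, and the 3 genotypes overlapped within each treatment. On TMM-normalized counts Keap1 changed by 1.67 ± 0.05 (adjusted p = 2.47e-14) in WT, 1.65 ± 0.05 (adjusted p = 3.63e-14) in GILZ KO and 1.69 ± 0.05 (adjusted p = 2.16e-14) in GILZ TG. On the TPM scale it was 1.04, 1.03 and 1.05, in the same direction. On the TPM scale Keap1 thus went up with LPS where Nfe2l2 went down. On TMM-normalized counts the log2 fold changes of Nfe2l2 were above 0 as well, at 0.20, 0.45 and 0.09, and called in GILZ KO only.

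Hmox1 encodes heme oxygenase 1, which opens the heme ring and releases iron, carbon monoxide and biliverdin. Without treatment it was at 1940.2, 1759.6 and 1500.2 TPM in WT, 1472, 1293 and 1399 TPM in GILZ KO and 1611, 1608 and 1541 TPM in GILZ TG. After LPS it was at 941, 839.6 and 680.2 TPM in WT, 895, 671 and 887 TPM in GILZ KO and 771, 619.95 and 689.6 TPM in GILZ TG. All LPS libraries lay below all control libraries. In edgeR the log2 fold changes were -0.44 ± 0.12 (adjusted p = 0.00439) in WT, -0.13 ± 0.12 (adjusted p = 0.373) in GILZ KO and -0.56 ± 0.12 (adjusted p = 0.000704) in GILZ TG. The value in GILZ KO did not pass the test relative to the typical gene, but on log2(TPM + 1) the changes were -1.08, -0.77 and -1.20 and all passed. Without GILZ TG replicates 1 and 2, which had the highest stromal and neutrophil markers, 1 GILZ TG library per treatment was left, and its spread was taken to be that of the other groups. The value in GILZ TG was then -0.49 (adjusted p = 0.0755 in edgeR), close to that with all libraries.

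Nqo1 encodes a quinone reductase that is widely used as a readout of NRF2. Its control values were 19.8, 30.3 and 36.7 TPM in WT, 32.1, 29.7 and 31.3 TPM in GILZ KO and 22.4, 19.1 and 30.4 TPM in GILZ TG. After LPS they were 10.5, 14.6 and 22.2 TPM in WT, 18.4, 14.4 and 15.8 TPM in GILZ KO and 12.4, 11.1 and 16.6 TPM in GILZ TG. WT was the most scattered group in both treatments, and its control and LPS values overlapped, whereas those of GILZ KO and GILZ TG did not. Log2 fold changes in edgeR were -0.25 ± 0.26 (adjusted p = 0.395) in WT, -0.29 ± 0.26 (adjusted p = 0.335) in GILZ KO and -0.22 ± 0.26 (adjusted p = 0.468) in GILZ TG, with no genotype past the test. On log2(TPM + 1) the changes were -0.85, -0.90 and -0.79, with adjusted p = 0.0042, 0.00287 and 0.00692 in limma. In GILZ TG, where control and LPS libraries of the same number deviated together, a fit with the replicate number as a block gave -0.21 with adjusted p = 0.0167 in edgeR. With this block 72.3%, 71.5% and 72.3% of all genes were called in WT, GILZ KO and GILZ TG.

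Glutathione synthesis starts from cysteine, which macrophages obtain by importing cystine. Slc7a11 encodes the light chain of this cystine/glutamate exchanger, xCT. Without treatment its TPM was the lowest of the 10 genes in every genotype, at 3.37, 3.38 and 2.17 TPM in WT, 3.10, 2.80 and 2.98 TPM in GILZ KO and 3.82, 3.66 and 3.31 TPM in GILZ TG. After LPS it was at 28.7, 26.4 and 23.8 TPM in WT, 43.5, 35.2 and 40.5 TPM in GILZ KO and 25.3, 25.2 and 32.7 TPM in GILZ TG. Every LPS library was above every control library, and the 3 GILZ KO libraries were above the 3 WT and the 3 GILZ TG libraries. The log2 fold change was 3.75 ± 0.15 (adjusted p = 3.72e-13) in WT, 4.37 ± 0.15 (adjusted p = 9.12e-14) in GILZ KO and 3.58 ± 0.15 (adjusted p = 6.29e-13) in GILZ TG. As folds on TMM-normalized counts these were 13.5, 20.7 and 11.9, the highest of the 10 genes in each genotype, and on log2(TPM + 1) the changes were 2.79, 3.36 and 2.64.

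Gclc and Gclm encode the catalytic and the modifier subunit of glutamate-cysteine ligase, the rate-limiting enzyme of glutathione synthesis. Gclc was at 70.7, 77.0 and 55.7 TPM in WT, 77.3, 66.2 and 62.3 TPM in GILZ KO and 70.0, 66.9 and 63.4 TPM in GILZ TG without treatment. LPS-treated cells had 16.2, 15.5 and 15.2 TPM in WT, 21.2, 17.5 and 17.9 TPM in GILZ KO and 20.06, 18.5 and 16.9 TPM in GILZ TG. No LPS library reached a control library, and the LPS values of WT were the lowest. The log2 fold change of Gclc was -1.48 ± 0.10 (adjusted p = 4.83e-10) in WT, -1.23 ± 0.10 (adjusted p = 7.26e-09) in GILZ KO and -1.22 ± 0.10 (adjusted p = 5.67e-09) in GILZ TG, the lowest of the 10 genes in each genotype.

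Gclm was at 468, 511 and 434 TPM in WT, 549.5, 433 and 434 TPM in GILZ KO and 427, 449 and 489.6 TPM in GILZ TG without treatment. After LPS it was at 229, 269.6 and 199 TPM in WT, 294, 215 and 237 TPM in GILZ KO and 261, 203 and 207 TPM in GILZ TG. The 2 treatments did not overlap in any genotype. Gclm fell on TMM-normalized counts, with log2 fold changes of -0.41 ± 0.10 (adjusted p = 0.00115) in WT, -0.31 ± 0.10 (adjusted p = 0.00905) in GILZ KO and -0.35 ± 0.10 (adjusted p = 0.00417) in GILZ TG. The call was lost in GILZ KO without LPS replicate 2 (-0.22, adjusted p = 0.0629 in edgeR), though the direction stayed. With GILZ TG replicate 3 as the 1 library left per treatment, the value in GILZ TG was -0.40 (adjusted p = 0.0715 in edgeR), no smaller than with all libraries. A processed pseudogene, Gm6061, overlaps Gclm on the same strand, and its counts were not whole numbers, so part of its reads was shared with other loci.

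Txnrd1 encodes cytosolic thioredoxin reductase, Srxn1 sulfiredoxin, which restores over-oxidized peroxiredoxins, and Prdx1 a peroxiredoxin that removes hydrogen peroxide. Txnrd1 was at 529.5, 541 and 400.3 TPM in WT, 547, 473 and 509 TPM in GILZ KO and 499, 497 and 449.9 TPM in GILZ TG without treatment. In LPS-treated cells it had 436, 399 and 395 TPM in WT, 551, 442 and 468 TPM in GILZ KO and 452, 441 and 418 TPM in GILZ TG. Control and LPS values overlapped in each genotype. The log2 fold change of Txnrd1 was 0.38 ± 0.09 (adjusted p = 0.00117) in WT, 0.57 ± 0.09 (adjusted p = 2.36e-05) in GILZ KO and 0.49 ± 0.09 (adjusted p = 0.000102) in GILZ TG, higher than the typical gene in all 3 genotypes, and the direction turned on log2(TPM + 1), with -0.25, -0.07 and -0.14 (adjusted p = 0.0392, 0.547 and 0.225 in limma). Another gene, Eid3, overlaps Txnrd1 on the same strand.

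Srxn1 was at 337, 353 and 278 TPM in WT, 347, 314 and 314 TPM in GILZ KO and 324, 336 and 287 TPM in GILZ TG without treatment. With LPS the levels were 152, 144 and 135 TPM in WT, 185, 134 and 154 TPM in GILZ KO and 173, 157 and 130.4 TPM in GILZ TG. All LPS values lay below all control values. Srxn1 fell by edgeR's test, with log2 fold changes of -0.54 ± 0.11 (adjusted p = 0.000214) in WT, -0.41 ± 0.11 (adjusted p = 0.00226) in GILZ KO and -0.41 ± 0.11 (adjusted p = 0.00251) in GILZ TG.

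Prdx1 was the most abundant of the 10 genes in every group, with 3839, 3904 and 4099 TPM in WT, 4019.6, 3538 and 3597 TPM in GILZ KO and 3964, 4333 and 4379.5 TPM in GILZ TG without treatment. After LPS it had 5071, 5172 and 4468 TPM in WT, 5166, 4125 and 4743 TPM in GILZ KO and 5517, 5264 and 5402 TPM in GILZ TG. LPS libraries lay above the control libraries of their genotype in each case, with a small gap in GILZ KO. Prdx1 rose by edgeR's test, with log2 fold changes of 0.94 ± 0.09 (adjusted p = 3.13e-08) in WT, 0.99 ± 0.09 (adjusted p = 1.69e-08) in GILZ KO and 0.99 ± 0.09 (adjusted p = 1.7e-08) in GILZ TG, and on log2(TPM + 1) it was 0.31, 0.33 and 0.35. Counts of Prdx1 were not whole numbers either.

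**Figure D2:**
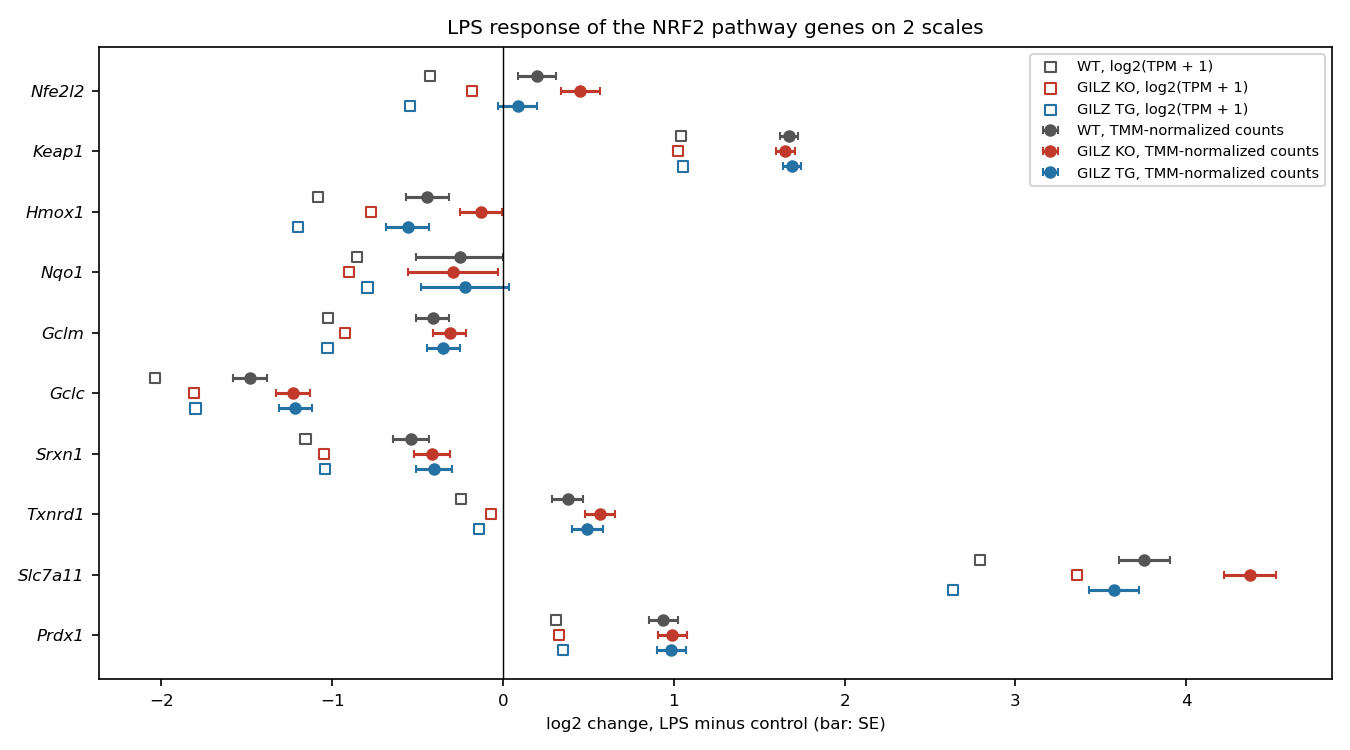
Log2 change from control to LPS of the 10 genes in WT, GILZ KO and GILZ TG, on TMM-normalized counts (filled points with SE, edgeR) and on log2(TPM + 1) (open squares). The squares lie to the left of the points for every gene, and Nfe2l2 and Txnrd1 change direction between the 2 scales in all 3 genotypes.

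Between genotypes the 10 genes differed far less than with LPS. No gene of the 10 passed the adjusted threshold in any of the 6 genotype comparisons in edgeR. The share of all genes called was 0.0951% for GILZ KO against WT, 0.642% for GILZ TG against WT and 4.94% for GILZ KO against GILZ TG without treatment, and 0.0822%, 0.46% and 2.6% after LPS. At an unadjusted p under 0.05, the number of the 10 genes was, in the same order, 1, 0 and 3 untreated and 4, 1 and 2 after LPS. Of all genes it was 9.6%, 14.1% and 24.6% without treatment and 9.63%, 15.2% and 19.1% after LPS. DESeq2 called 1, 0 and 2 of the 10 genes without treatment, against 0.576%, 2.24% and 9.27% of all genes with an adjusted p. After LPS it called 1, 0 and 2, against 0.714%, 2.09% and 5.42%. The log2 fold changes of all 10 genes lay between -0.36 and 0.34 without treatment and between -0.25 and 0.60 after LPS. For Keap1 the 6 values were between -0.02 and 0.04, with standard errors of 0.05 to 0.06.

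Without treatment, Hmox1 was the gene with the smallest p in GILZ KO against WT. The untreated values given above were lower in all 3 GILZ KO libraries than in all WT libraries, by a narrow gap, with a log2 fold change of -0.36 ± 0.07 (adjusted p = 0.199) in edgeR. Of all genes tested, 17.2% had TPM values without overlap in this comparison, and Hmox1 was the only one of the 10. DESeq2 gave -0.37 with adjusted p = 0.000488 for this comparison, and adjusted p over the alternatives ranged from 0.000488 to 0.618. Against GILZ TG, the values of Hmox1 were also lower in GILZ KO (-0.22 ± 0.07, adjusted p = 0.0944), and so were those of Slc7a11 (-0.30 ± 0.13, adjusted p = 0.197), neither past the threshold in edgeR. Prdx1 had the smallest p of the 10 genes here (-0.23 ± 0.07, adjusted p = 0.078), with TPM values that overlapped, and DESeq2 called Prdx1 (-0.23, adjusted p = 0.0202) and Hmox1 (adjusted p = 0.0367). Hmox1 and Slc7a11 were the 2 of 10 genes that did not overlap, against 28.7% of all genes. For GILZ TG against WT without treatment, none of the 10 genes was free of overlap, against 14.9% of all genes.

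After LPS, Slc7a11 was the gene with the smallest p in both comparisons of GILZ KO. Its mean was 39.7 ± 4.20 TPM (SD, n = 3) in GILZ KO. In WT the mean was 26.3 ± 2.46 TPM, and GILZ TG had 27.7 ± 4.30 TPM. On the log2 scale the difference was 0.60 ± 0.12 (adjusted p = 0.161) against WT and 0.52 ± 0.12 (adjusted p = 0.0528) against GILZ TG in edgeR, neither past the threshold. Both passed in DESeq2, with adjusted p = 0.00331 and 0.00382, and in edgeR without a filter on low counts, with 0.00589 and 0.00323. Most alternatives did not call Slc7a11. Apart from changed thresholds, it was not called in 12 of 15 against WT and in 11 of 16 against GILZ TG. Against GILZ TG the value depended on which GILZ TG libraries were used. GILZ TG replicate 3, which had few stromal and neutrophil markers, was the highest of its group in Slc7a11. Without it the log2 fold change was 0.67 (adjusted p = 0.00266 in edgeR), and with replicate 3 as the 1 GILZ TG library it was 0.26 (adjusted p = 0.534 in edgeR, with the spread taken from the other groups). The part of the stromal and neutrophil markers in this difference was not tested. For TPM without overlap, 3 of the 10 genes met the condition between GILZ KO and WT (16.3% of all genes) and 2 between GILZ TG and WT (15.2%). There were also 3 that met it between GILZ KO and GILZ TG (20.6%).

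Besides Slc7a11, the genes without overlap after LPS were the following. In GILZ KO against WT, Gclc (0.26 ± 0.09, adjusted p = 0.371) and Txnrd1 (0.24 ± 0.08, adjusted p = 0.398) were at higher values in GILZ KO. In GILZ TG against WT, Gclc (0.24 ± 0.08, adjusted p = 0.201) and Prdx1 (0.16 ± 0.10, adjusted p = 0.469) were at higher values in GILZ TG. The 3 Gclc values of WT after LPS were thus below those of both other genotypes, with the highest WT value at 16.2 TPM and the lowest of the others at 16.9 TPM. In GILZ KO against GILZ TG, Nfe2l2 was at higher values in GILZ KO (0.41 ± 0.12, adjusted p = 0.105) and Prdx1 at lower values (-0.20 ± 0.10, adjusted p = 0.285). Nfe2l2 passed the threshold in DESeq2 (adjusted p = 0.0384) and in edgeR without GILZ TG LPS replicate 3 (0.54, adjusted p = 0.0114), and was at 0.16 with replicate 3 as the 1 GILZ TG library (adjusted p = 0.732, with the spread taken from the other groups). All other adjusted p-values in this paragraph are from edgeR.

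**Figure D3:**
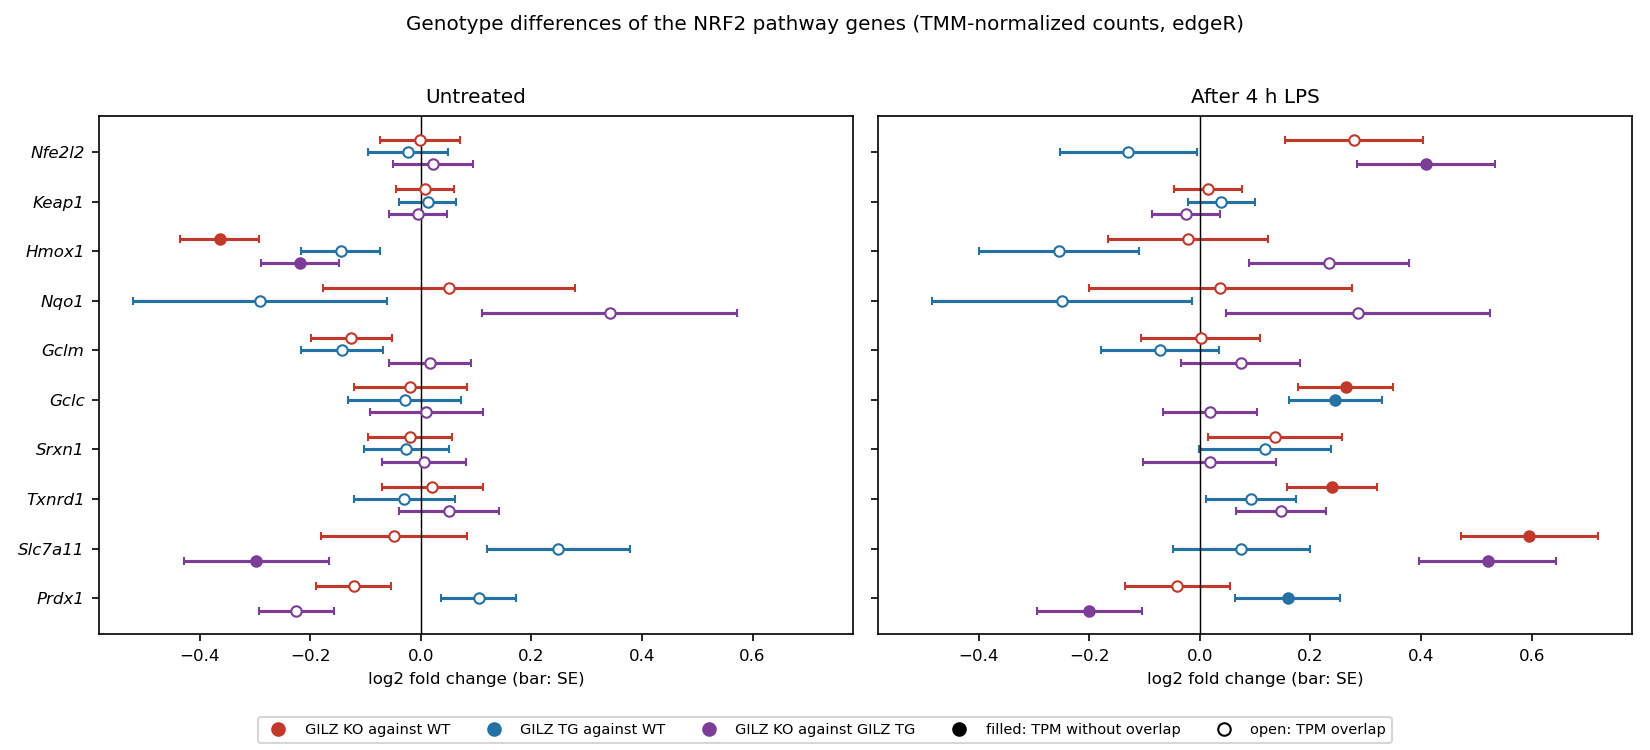
Log2 fold change with SE of the 10 genes in GILZ KO against WT, GILZ TG against WT and GILZ KO against GILZ TG, without treatment (left) and after 4 h of LPS (right), on TMM-normalized counts. Filled points mark TPM values without overlap between the groups, 3 without treatment and 8 after LPS, and no point passed the adjusted threshold in edgeR.

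Whether the LPS response itself differed between genotypes was tested as an interaction over the 18 libraries. None of the 10 genes passed in edgeR, against 0.0152% of all genes for GILZ KO minus WT, 0.00759% for GILZ TG minus WT and 0.121% for GILZ KO minus GILZ TG. At an unadjusted p under 0.05 there were 1, 0 and 3 of the 10 genes, against 6.36%, 3.09% and 9.92% of all genes, and DESeq2 called 0, 0 and 1, against 0.156%, 0.00926% and 1.49%. The differences of the log2 fold change lay between -0.18 and 0.79. Slc7a11, singled out after its values were seen, had 0.62 ± 0.20 (adjusted p = 0.671) for GILZ KO minus WT and 0.79 ± 0.20 (adjusted p = 0.136) for GILZ KO minus GILZ TG in edgeR. The latter passed with the replicate number as a block (0.81, adjusted p = 0.0336), in DESeq2 (adjusted p = 0.0181), without a filter (adjusted p = 0.039) and without GILZ TG LPS replicate 3 (0.95, adjusted p = 0.0193). Apart from changed thresholds, GILZ KO minus WT was called in none of 19 alternatives. GILZ KO minus GILZ TG was not called in 16 of 20. With replicate 3 as the 1 GILZ TG library per treatment it was 0.41 (adjusted p = 0.678 in edgeR, with the spread taken from the other groups).

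Apart from treatment and genotype, the genes varied together in part. Pearson correlations of log2 CPM (counts scaled by library size) with the group means removed were computed for the 45 pairs of the 10 genes over 18 libraries in 6 groups. The median was 0.19, beside -0.001 for pairs among 2195 tested genes taken at regular steps through the list. Of the 45 pairs, 16 were above 0.5 and none below -0.5. The share of all gene pairs beyond these limits was not computed, so these counts have no background beside them. The highest pairs were Gclc with Txnrd1 (0.871), Nfe2l2 with Nqo1 (0.861), and Srxn1 with both Gclc and Txnrd1 (0.807 each). The lowest was Nfe2l2 with Srxn1 (-0.487). The libraries share their depth and cell preparation across genes, so these values describe the libraries.

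**Figure D4:**
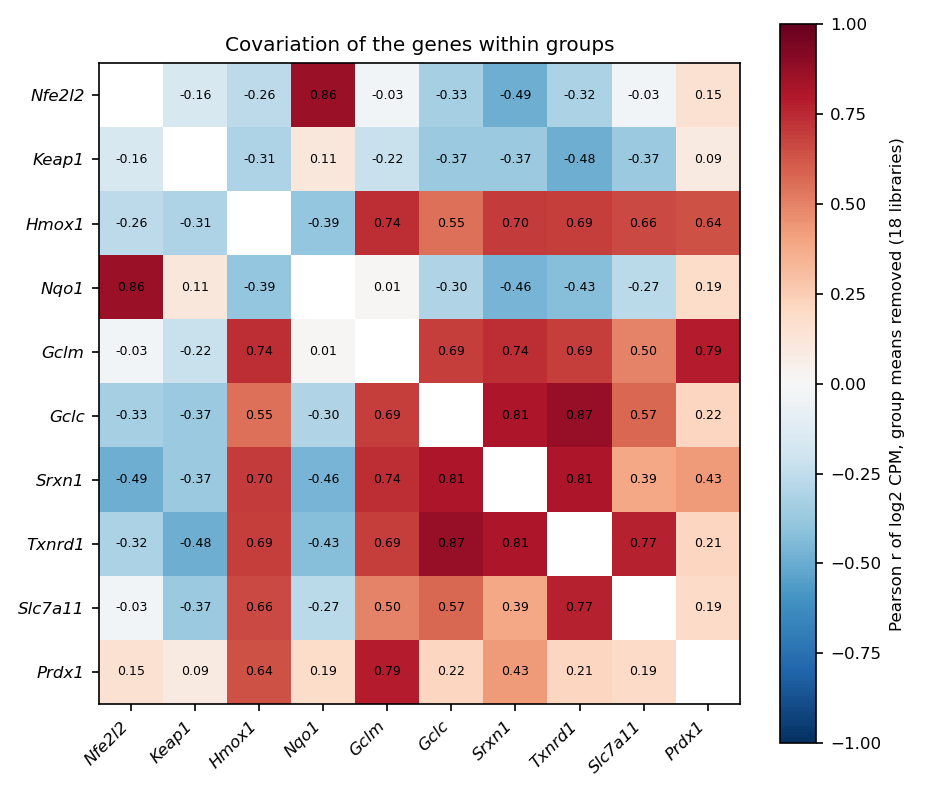
Pearson correlation of the deviations of the 10 genes from their group means over 18 libraries, on log2 CPM. Red pairs deviated together, with the highest values for Gclc and Txnrd1 (0.871) and for Nfe2l2 and Nqo1 (0.861), and the lowest for Nfe2l2 and Srxn1 (-0.487).

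The rest of the pathway was described with 45 further genes in 6 roles, 43 of which could be tested. With LPS, 23 of 43 were called higher in each genotype and 8, 7 and 6 lower in WT, GILZ KO and GILZ TG, together 72.1%, 69.8% and 67.4%, near the share of all genes. Of all genes, 33.5%, 33.2% and 33.6% were called higher and 35.1%, 35.4% and 35.1% lower, and the counts by role are to be read beside these. Among the 10 regulators, 9, 8 and 8 were called higher and 1 lower in each genotype. Of 9 tested genes of glutathione use and transport, 5 were called higher and none lower in each genotype. The 7 thioredoxin and peroxiredoxin genes had 4 higher in each genotype and 2, 1 and 1 lower, and the 4 heme and iron genes 2 higher in each and 2, 2 and 1 lower. Of 6 genes of NADPH supply, 1, 2 and 2 were higher and 1 lower in each genotype, and of 7 tested detoxification genes 2 were higher and 2 lower in each. The directions here are relative to the typical gene, and some genes with small positive log2 fold changes had lower TPM after LPS, such as Rbx1 in WT (64.1 against 78.5 TPM).

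The 3 genes with the largest changes were the same in each genotype. Osgin1, an oxidative stress-induced growth inhibitor, fell from 48.4, 52.3 and 40.5 to 3.04, 2.86 and 3.46 TPM in WT, from 48.2, 49.7 and 43.6 to 6.58, 2.94 and 4.82 TPM in GILZ KO and from 56.2, 46.7 and 45.7 to 2.52, 2.52 and 2.97 TPM in GILZ TG. Its log2 fold changes were -3.29 ± 0.15, -2.71 ± 0.15 and -3.66 ± 0.15. Mafk, a small MAF partner of NRF2 and BACH1, rose by 2.86 ± 0.09, 2.57 ± 0.09 and 2.91 ± 0.09 on the log2 scale. Prdx5, a peroxiredoxin, rose by 1.99 ± 0.10, 2.16 ± 0.10 and 1.85 ± 0.10. These 9 values passed in edgeR and under every alternative, in the same direction. Osgin1 fell further than any of the 10 main genes, and Prdx5 rose more than Prdx1.

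**Figure D5:**
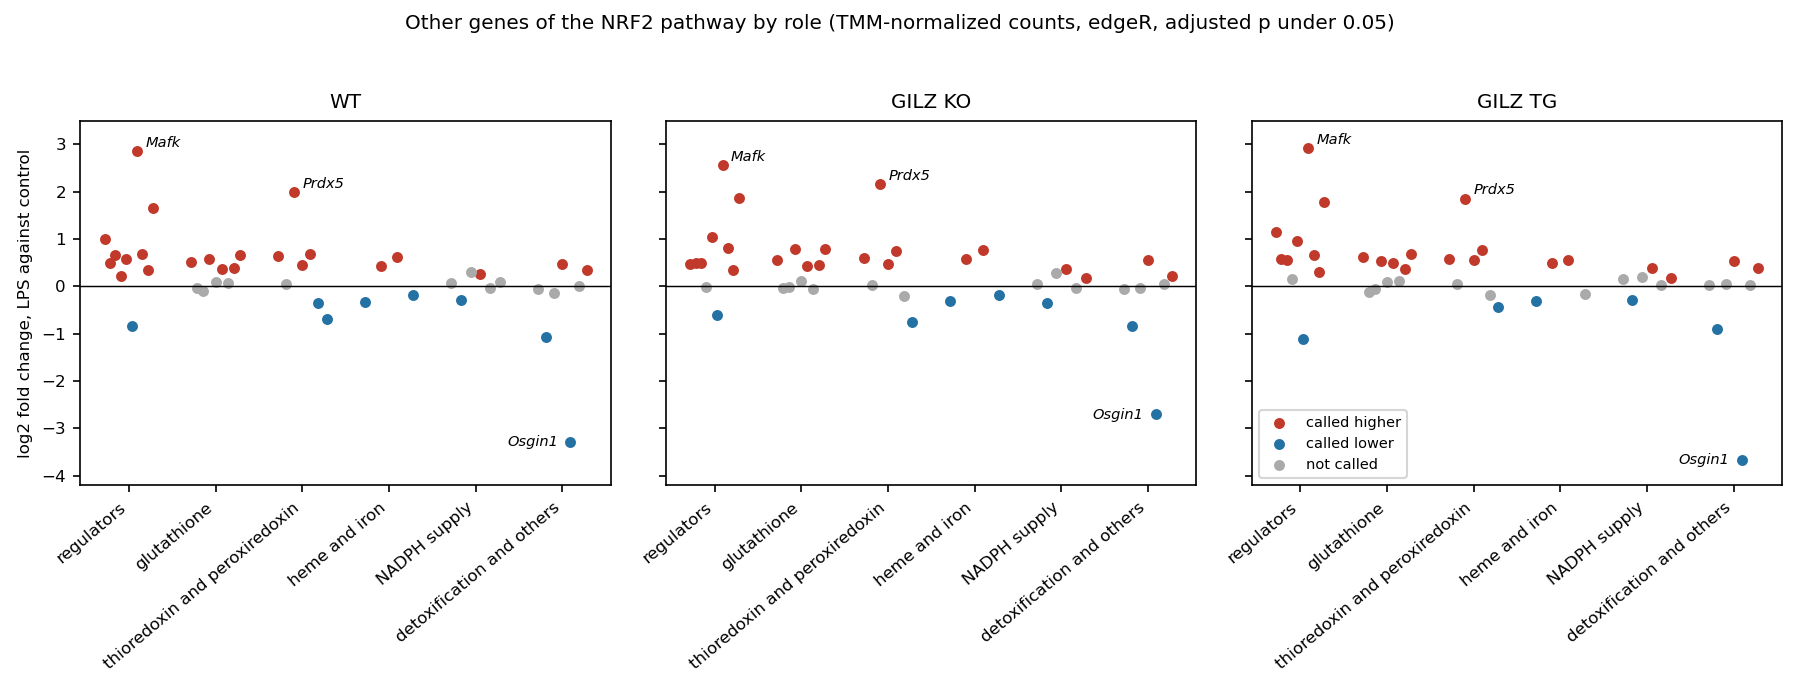
Log2 fold change from control to LPS of the 43 other pathway genes tested, by role, in WT, GILZ KO and GILZ TG, on TMM-normalized counts. Red and blue points passed the adjusted threshold in edgeR. Mafk and Prdx5 are the highest named points and Osgin1 is the lowest in each genotype, and some small positive values turn direction on the TPM scale.

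Genotype calls among the other pathway genes were found mainly between GILZ KO and GILZ TG. In GILZ KO against WT none of the 43 was called in either treatment, against 0.0951% and 0.0822% of all genes. At an unadjusted p under 0.05 there were 8 in each, against 9.6% and 9.63%. Between GILZ TG and WT, Mgst1, a microsomal glutathione transferase, was the only one called without treatment (-0.47 ± 0.08, adjusted p = 0.0372), and none after LPS. Of all genes, 0.642% and 0.46% were called. At an unadjusted p under 0.05 there were 10 without treatment and 7 after LPS, against 14.1% and 15.2%. In GILZ KO against GILZ TG, 6 of 43 (14%) were called without treatment and 4 (9.3%) after LPS, against 4.94% and 2.6% of all genes. Here 17 and 15 had an unadjusted p under 0.05, against 24.6% and 19.1%. The genes called are named next. Without treatment these were Mgst1 (0.65 ± 0.08, adjusted p = 0.00433), the epoxide hydrolase Ephx1 (0.67 ± 0.11, adjusted p = 0.0139), malic enzyme Me1 (0.50 ± 0.12, adjusted p = 0.0402) and Bach1 (0.30 ± 0.05, adjusted p = 0.0152), which were higher in GILZ KO, and the small MAF gene Maff (-0.64 ± 0.12, adjusted p = 0.0204) and the transaldolase Taldo1 (-0.20 ± 0.05, adjusted p = 0.0413), which were lower. After LPS they were Mgst1 (0.74 ± 0.09, adjusted p = 0.00496), Me1 (0.60 ± 0.13, adjusted p = 0.0377), glutathione reductase Gsr (0.47 ± 0.09, adjusted p = 0.0271) and Mafg (0.46 ± 0.10, adjusted p = 0.0436), all higher in GILZ KO.

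The TPM values of Mgst1 were ordered by genotype, although GILZ KO against WT was not called in either treatment, nor GILZ TG against WT after LPS. It was at 55.2, 51.6 and 53.4 TPM in WT, 65.1, 62.1 and 61.8 TPM in GILZ KO and 36.9, 44.5 and 37.2 TPM in GILZ TG without treatment. Under LPS the values were 47.7, 46.2 and 44.4 TPM in WT, 57.5, 51.6 and 55.1 TPM in GILZ KO and 34.4, 33.7 and 28.8 TPM in GILZ TG. In both treatments GILZ KO was above WT and WT above GILZ TG without overlap. Of all genes, 17.2% had no overlap in GILZ KO against WT and 14.9% in GILZ TG against WT without treatment. After LPS these shares were 16.3% and 15.2%. The share of genes with the same order as Mgst1 was not computed. The calls of Mgst1 in GILZ KO against GILZ TG passed under all 16 alternatives in each treatment. The other 8 calls between these genotypes were lost under 4 to 11 of 16, one of which left 1 GILZ TG library. The call of Mgst1 in GILZ TG against WT was lost under 9 of 16.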

How the data were processed

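RNA of 18 BMM libraries was sequenced for 75 nt by the authors, who per the study's methods mapped the reads with the grape-nf pipeline to GRCm38 and tested counts with DESeq2 1.40.2. The counting tool and its strand setting are not given in the sources used here. The authors' deposited files give an estimated count per gene, without normalization, and TPM, scaled by effective transcript length and library. The authors' comparison tables, which hold fold changes and p-values, served only to pair identifiers with symbols. The deposited effective lengths were read for reference.

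Estimated counts were rounded, since 13.1% to 15.9% of genes per library had counts that were not whole. Genes were filtered by filterByExpr, scaled by TMM factors and compared by quasi-likelihood F tests (edgeR 4.0.16, R 4.3.3), with Benjamini-Hochberg adjustment over all genes tested and a threshold of 0.05. The LPS response and its differences used 18 libraries (13169 genes), and genotype differences the 9 libraries of a treatment (12621 genes untreated, 12164 after LPS). Log2 fold changes are given ± SE, with 3 libraries per group. Alternatives were DESeq2 1.42.0, limma 3.58.1 on log2(TPM + 1) and log2(TPM + 0.1), DESeq2 size factors, no filter, at least 10 counts in every library, other sets of libraries, each library left out, a replicate block and thresholds of 0.01 and 0.1. The fit without GILZ TG replicates 1 and 2 was added after seeing the data. Scripts were tested on simulated data.

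Replicate numbers paired control and LPS libraries in GILZ TG, where the 3 correlations of deviations from the group means were 0.266, 0.397 and 0.605, above the limit of 0.1. Per the study, BMMs came from 3 mice per group, and each library shown within a treatment was an independent preparation. Whether control and LPS libraries of the same number came from the same preparation is not stated. The main tests treated all libraries as independent, so a shared preparation was not accounted for in the p-values of the LPS responses and interactions. The p-values of genotype differences within a treatment measure the spread between preparations. No libraries were duplicates, since counts differed between all replicates by more than sampling noise. Depth limits genes with few counts.

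The 10 genes, the 45 other pathway genes and the markers were chosen with earlier results of these data known. Named with values were all 10 genes, the 3 other pathway genes with the largest absolute log2 fold change among those called in each LPS response, and any called in a genotype difference. Promoters are from RefSeq on GRCm38.p6, and gene positions and exons from GENCODE M21 on GRCm38.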

Additional observations from a re-analysis of the deposited data

Results flagged for a closer look

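Bach1, which encodes a repressor at antioxidant response elements, differed in its LPS response between GILZ KO and GILZ TG in the interaction test, but not past the threshold between GILZ KO and WT. Of the 43 other pathway genes tested, it was the only one called in the 3 interaction tests. Of all genes, 0.0152% were called for GILZ KO minus WT, 0.00759% for GILZ TG minus WT and 0.121% for GILZ KO minus GILZ TG. At an unadjusted p under 0.05 there were 6, 2 and 6 of the 43, against 6.36%, 3.09% and 9.92%. In GILZ KO the control libraries had 32.8, 33.9 and 34.8 TPM of Bach1 and the LPS libraries 29.1, 32.0 and 26.9 TPM. GILZ TG had 27.7, 25.7 and 26.4 TPM before and 38.8, 42.0 and 34.1 TPM with LPS. WT had 31.4, 28.8 and 27.0 and 43.5, 33.2 and 37.5 TPM. The LPS values lay below the control values in GILZ KO and above them in WT and GILZ TG, without overlap. The log2 fold change on TMM-normalized counts was 0.99 ± 0.08 (adjusted p = 1.37e-08) in WT, 0.46 ± 0.09 (adjusted p = 0.00013) in GILZ KO and 1.14 ± 0.09 (adjusted p = 2.19e-09) in GILZ TG, so that the value in GILZ KO turned direction on the TPM scale (-0.20). The difference GILZ KO minus GILZ TG was -0.68 ± 0.12 (adjusted p = 0.0271) in the interaction test of edgeR, with adjusted p from 0.000242 to 0.531 over 20 alternatives and the same direction in all of them. For GILZ KO minus WT it was -0.53 ± 0.12 (adjusted p = 0.382), and for GILZ TG minus WT 0.15 ± 0.12 (adjusted p = 1), in the same test. The call for GILZ KO minus GILZ TG was lost in 12 of the 20 alternatives, with the highest adjusted p (0.531 in edgeR) without GILZ TG replicates 1 and 2, which had the highest stromal and neutrophil markers. That setting left 1 GILZ TG library per treatment, with its spread taken from the other groups, and the value was -0.56. The part of these markers in the difference was not tested. With 3 libraries per group, no search for single libraries far from the others was made.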

How the results depend on the processing

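For the 10 genes, the LPS responses of Keap1, Gclc, Srxn1, Slc7a11 and Prdx1 kept direction and call in all 3 genotypes under every alternative. On log2(TPM + 1) and log2(TPM + 0.1) in limma, the direction of Nfe2l2 turned in WT (-0.43 in both), GILZ KO (-0.18 in both) and GILZ TG (-0.54 and -0.55), that of Txnrd1 in WT (-0.25 in both), GILZ KO (-0.070 in both) and GILZ TG (-0.14 in both), and that of Bach1 in GILZ KO (-0.20 and -0.21). With the median gene of the log2(TPM + 1) scale taken out, Nfe2l2 was at 0.078, 0.34 and -0.032 and Txnrd1 at 0.26, 0.45 and 0.37 in WT, GILZ KO and GILZ TG. Nfe2l2 in GILZ TG also turned to -0.060 without GILZ TG LPS replicate 3, and ranged from -0.060 to 0.17 when 1 library was left out. Nqo1 was called on both TPM scales in each genotype, and Hmox1 in GILZ KO.

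The number of the 10 genes called in genotype comparisons was 0 in the main test. Without treatment DESeq2 called 1 for GILZ KO against WT. For GILZ KO against GILZ TG it called 2, as did a threshold of 0.1 in edgeR. After LPS it was 1 in GILZ KO against WT in DESeq2, without a filter and with only the 6 libraries compared. In GILZ KO against GILZ TG after LPS it was 2 in DESeq2 and without a filter, 1 with at least 10 counts, with all 18 libraries and at a threshold of 0.1, and 0 to 2 when 1 library was left out. For the interaction GILZ KO minus GILZ TG it was 1 in DESeq2, without a filter and with the replicate block, and 0 to 1 when 1 library was left out. Of all genes, DESeq2 called 0.576% and 0.714% in GILZ KO against WT without treatment and after LPS. In GILZ KO against GILZ TG these shares were 9.27% and 5.42%, and 1.49% for the interaction. The other settings have no share of all genes beside their counts, and the genes called over the whole table also moved, as given below. Those of the 10 genes concerned were Slc7a11, Hmox1, Prdx1 and Nfe2l2. The cause was not tested.

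In WT and GILZ KO, and between genotypes, the numbers did not pair throughout. With the replicate block, 10, 9 and 9 of the 10 genes were called in the LPS response in WT, GILZ KO and GILZ TG against 8 each without it (72.3%, 71.5% and 72.3% of all genes, and 68.6%, 68.5% and 68.7% without it), adding Nfe2l2 (0.19, adjusted p = 0.0155) and Nqo1 (-0.27, adjusted p = 0.00344) in WT and Nqo1 (-0.30, adjusted p = 0.00206) in GILZ KO in edgeR. Of 18 pairs between genotypes, 2 had a correlation above 0.1. The block of the LPS responses joined control and LPS libraries of the same number within a genotype. In the genotype comparisons the block was instead the replicate number taken across genotypes. Under that second block Mgst1 in GILZ TG against WT without treatment had adjusted p = 0.0529 in edgeR. Mafg in GILZ KO against GILZ TG after LPS had adjusted p = 0.0514 in edgeR.

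Genes called over the whole table moved by over 1.5 times between settings in the genotype comparisons. They ranged over the alternatives from 5 to 76 (12 in the main test) for GILZ KO against WT, 16 to 665 (81) for GILZ TG against WT and 34 to 1306 (623) for GILZ KO against GILZ TG without treatment, and from 4 to 93 (10), 15 to 1067 (56) and 24 to 1403 (316) after LPS. For the interactions they ranged from 1 to 20 (2), 0 to 8 (1) and 0 to 153 (16). In each genotype comparison with GILZ TG, the highest number came from leaving out GILZ TG replicate 3 of that treatment, which had few stromal and neutrophil markers. The lowest number for GILZ KO against GILZ TG without treatment came from leaving out GILZ TG replicates 1 and 2, which left 1 GILZ TG library. The part of these markers in the numbers was not tested. The lowest totals were those of GILZ KO LPS replicates 2 and 3, and 3 libraries per group limit what small differences can pass.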
